A study of Mus musculus with 60 samples.

Results

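The lowest dose of BIO 300, 50 mg/kg, was compared with vehicle in whole blood of unirradiated mice on Day 1, which uses 12 of the 60 mice of the series. The 6 mice labelled BIO300-Low on Day 1 (mice 31 to 36) received BIO 300 at 50 mg/kg by oral gavage. The 6 mice labelled Vehicle on Day 1 (mice 25 to 30) received the carrier alone, a mix of water, methylcellulose and polyvinylpyrrolidone. Both groups were dosed 2 times a day, 12 h apart. All 12 were male CD2F1 mice, 5 to 6 weeks old when purchased and housed 3 to a cage, none was irradiated, and all were bled 48 h after the end of 6 days of dosing. Blood was drawn from the inferior vena cava into PAXgene RNA tubes in a terminal bleed, so each mouse gives 1 library and no mouse was sampled before treatment. The other 8 groups of the series were vehicle on Day 0 (sampled 24 h after dosing ended), BIO 300 at 50, 100 and 200 mg/kg on Day 0, at 100 and 200 mg/kg on Day 1, and 2 groups given 9.2 Gy total body irradiation (TBI).

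BIO 300 is an oral powder of synthetic genistein, a plant isoflavone that binds estrogen receptors and acts as a selective agonist of estrogen receptor β. It is under development as a medical countermeasure against radiation injury of the blood-forming system. RNA from whole blood comes from white cells, platelets, which carry transcripts of the megakaryocyte they bud from, and reticulocytes, the young red cells that still hold messenger RNA. A transcript's share of such a sample therefore depends on both the number of cells of a type and the RNA in each, and fewer cells of a type and less RNA per cell cannot be told apart.

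The libraries held 21247249 to 32949547 counts over 49315 annotated genes, and 24118 genes with at least 10 counts summed over the 12 mice were tested. Levels are given as CPM, counts scaled to a common sequencing depth, after TMM, a normalization in edgeR that sets each library's scale by the genes most alike between libraries, and groups of 6 as the lowest, median and highest mouse. The 4 globin genes tested, markers of whole blood, took 8.02% to 12.4% of all counts in every library, and the noncoding RNA gene Gm26917 took 7.30% ± 1.1 (SD, n = 6) with vehicle and 7.36% ± 2.2 (SD, n = 6) at 50 mg/kg. The vehicle library of mouse 29 stood apart. All 16 hepatocyte genes tested exceeded 10 CPM in it, against at most 2 in any other mouse, and Alb, the serum albumin gene of liver, was at 1051 CPM there and at most 23.0 CPM in the other 11 mice. The first principal component of the log CPM values, which carried 39.9% of the variance, set this mouse apart. Gene and list results that rest on this library are given with and without it. Shares of counts, totals and numbers of genes detected are given only with all 12 mice.

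At 50 mg/kg on Day 1, 2 genes rose and 0 fell at a Benjamini-Hochberg adjusted p under 0.05 in edgeR's quasi-likelihood test, which is 0.00829% of the genes tested. Both encode histone H4, the core histone whose copies lie scattered over the histone gene clusters, and neither change reached 2-fold. No gene met the definition of a DEG (adjusted p under 0.05 and absolute log2 fold change over 1), 0% of the genes tested. Unadjusted, 2143 genes (8.89%) were higher at p under 0.05 and 2315 (9.6%) were lower, a split that became 285 higher and 6494 lower when library totals were used without TMM. With DESeq2's Wald test these genes gave 39 DEGs (0.162%), of which 27 rose and 12 fell, and 1246 genes (5.17%) at adjusted p under 0.05 with any fold, so the number of genes called depends on the tool. The median log2 fold change over all genes tested was -0.045. Among the 14008 genes with at least 1 CPM, 13.6% were higher and 12.1% lower at unadjusted p under 0.05 in edgeR's test. Most gene lists described below consist mainly of genes at that level, so these shares are the closer background for them. The 2 edgeR calls were no longer made when any of mice 26, 28, 29, 32, 33, 34 or 35 was left out, each of which gave 0 genes, whereas leaving out mouse 27 gave 118 genes and leaving out mouse 36 gave 527.

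Hist1h4n (ENSMUSG00000069305, chr13:21831767-21832196, minus strand, GRCm38) had 13.2, 15.4 and 19.9 CPM in the vehicle mice. It had 22.1, 27.2 and 27.8 CPM in the mice given 50 mg/kg. Every treated mouse lay above every vehicle mouse, with a log2 fold change of 0.76 (SE 0.095, edgeR adjusted p = 0.0231). The second called gene, Hist1h4h (ENSMUSG00000060981, chr13:23531050-23531519, plus strand), had 21.4, 24.3 and 30.9 CPM with vehicle. Its treated mice had 33.8, 43.8 and 46.2 CPM. Again the groups did not overlap, and the log2 fold change was 0.74 (SE 0.10, edgeR adjusted p = 0.0305).

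Histone H4 genes carry very similar coding sequences, and reads that fit several of them equally well would not be counted as unique hits, so the division of reads between copies is uncertain. A pair of further H4 genes came close to the threshold. Hist4h4, the single histone gene of its cluster on chromosome 6, had 13.4, 20.8 and 24.4 CPM with vehicle and 30.6, 35.4 and 40.3 CPM at 50 mg/kg, without overlap (log2 fold change 0.80, edgeR adjusted p = 0.0586). Hist2h4 had 12.5, 13.4 and 17.4 CPM against 17.0, 20.7 and 24.3 CPM, where the highest vehicle mouse lay above the lowest treated mouse (0.58, adjusted p = 0.0619). Over the 13 H4 genes tested, 11 were higher at unadjusted p under 0.05, the median log2 fold change was 0.59, and all 13 values were positive.

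**Figure D1:**
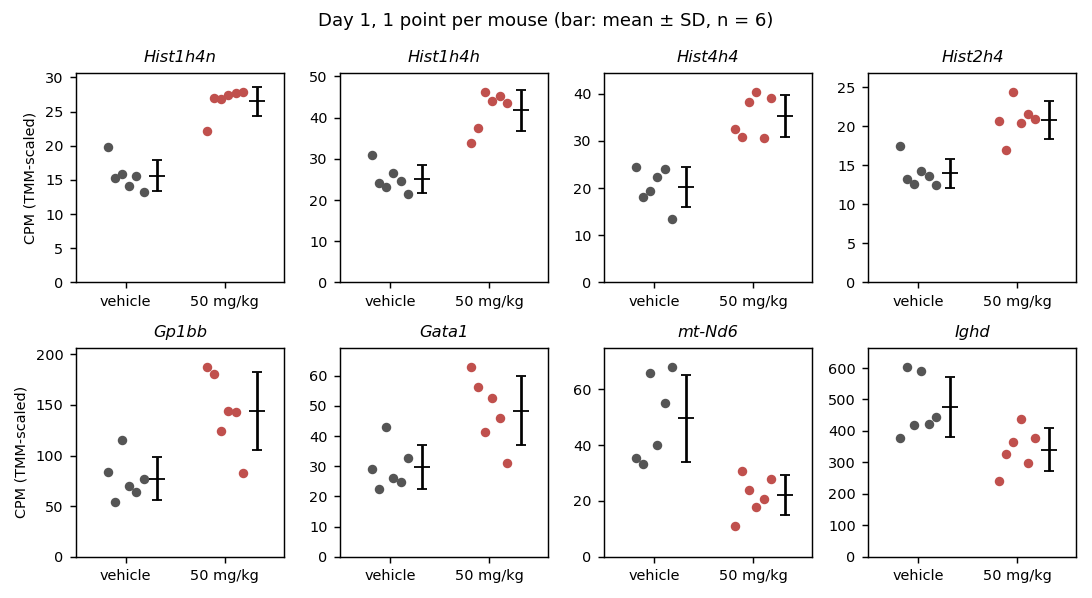
CPM per mouse (vertical axes, each starting at 0) of single genes in the 6 vehicle mice and the 6 mice given 50 mg/kg BIO 300 on Day 1, 1 point per mouse, with the mean ± SD (n = 6) as a bar beside each group. For Hist1h4n the 6 treated mice sit between 22.1 and 27.8 CPM, all above the highest vehicle mouse at 19.9, and for mt-Nd6 all treated mice sit below the lowest vehicle mouse at 33.2.

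Most genes of the other histone classes also had positive values. The histone genes were taken by symbol, and not all are typical members, as the pseudogene Hist3h2bb-ps is among them. Typical replication-dependent histone genes are copied in S phase, lack introns, and their messages end in a stem-loop in place of a poly(A) tail. Of 15 H2B genes 9 were higher at unadjusted p under 0.05, of 10 H3 genes 5, of 17 H2A genes 4 and of 6 H1 linker histone genes 4, and no histone gene of the 61 tested was lower. In all, 33 of 61 were higher, with a median log2 fold change of 0.49 against -0.045 over all genes. DESeq2 called 16 of the 61 at adjusted p under 0.05 with any fold, against 5.17% of all genes. Of the 61 values 57 were positive. The share of counts on histone genes was 0.0876% ± 0.018 (SD, n = 6) with vehicle and 0.0950% ± 0.013 (SD, n = 6) at 50 mg/kg, a difference that did not pass an exact permutation test over mice (adjusted p = 0.61), so the higher values hold on the TMM scale and were not seen in the plain share of counts. Without the TMM factors, the median of all genes moves to -0.36 and that of the histone genes to 0.15, with 6 higher and 2 lower, and 0 genes pass the adjusted threshold.

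The stretches just upstream of the start of Hist1h4n, Hist1h4h and Hist4h4, the H4 genes whose groups did not overlap, are shown because all of them hold the letters TCNGGTCC (in capitals, searched on both strands), the core of an element known from H4 promoters. Sequences and positions are those of RefSeq on GRCm38.p6, where these genes are named H4c18, H4c8 and H4f16.
Hist1h4n, chr13:21832198-21832347, minus strand: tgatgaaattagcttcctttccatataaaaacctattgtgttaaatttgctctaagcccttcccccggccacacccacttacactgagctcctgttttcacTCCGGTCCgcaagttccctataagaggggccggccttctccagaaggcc
Hist1h4h, chr13:23530894-23531043, plus strand: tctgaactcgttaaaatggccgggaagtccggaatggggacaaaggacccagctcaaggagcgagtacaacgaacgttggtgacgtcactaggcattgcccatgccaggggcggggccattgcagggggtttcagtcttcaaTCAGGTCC
Hist4h4, chr6:136804432-136804581, minus strand: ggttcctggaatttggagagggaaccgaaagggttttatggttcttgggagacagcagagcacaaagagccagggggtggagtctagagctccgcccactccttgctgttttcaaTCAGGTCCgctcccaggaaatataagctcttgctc
The element begins 49 bases before the annotated start in Hist1h4n, 8 bases before it in Hist1h4h and 35 bases before it in Hist4h4. In windows from 250 bases before to 50 after the start, the exact letters were present in 5 of the 12 H4 promoters matched. They were in 0 of 41 promoters of other histone genes and in 4.37% of 27025 promoters. Near spellings, such as ttcggtcc in Hist1h4j and ccaggtcc in Hist1h4b, were not counted, so a promoter without the exact letters may still hold a form of the element. Hist1h4m and Hist1h4i are the other 2 with the exact letters, and H4 genes without them, such as Hist1h4j, were also higher at unadjusted p under 0.05. The CCAAT letters were in 3 of 12 H4 promoters, in 41 of 41 promoters of other histone genes and in 37.9% of all promoters. These matches describe the letters in the windows and say nothing of binding.

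The ends of both called transcripts are shown because the stem-loop, in place of a poly(A) tail, sets these messages apart in a library prepared by poly(A) selection, which the labels name, and in a library of total RNA, which the methods name. The letters CTTTTNAG (this strand only) are in capitals.
Hist1h4n: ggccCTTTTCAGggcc
Hist1h4h: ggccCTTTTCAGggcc
The stretch is identical in both and ends 31 bases before the end of the annotated transcript in Hist1h4n and 46 bases before it in Hist1h4h. In the last 100 bases, 20 of the 61 histone genes and 0.958% of 58797 coding transcripts held these letters. The 20 genes had a median of 0.51 on the log2 scale and the other 41 of 0.48, so the values were similar with and without the letters in the annotated end.

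Platelet genes had higher values at 50 mg/kg. Of 17 tested, 14 were higher and 0 lower at unadjusted p under 0.05, all 17 values were positive, and the median log2 fold change was 0.75. None passed the adjusted threshold in edgeR, and DESeq2 called 13 of the 17 at adjusted p under 0.05 with any fold, against 5.17% of all genes. Without TMM 8 of the 17 were higher, with a median of 0.39. Gp1bb, a subunit of the platelet receptor for von Willebrand factor, had 54.5, 73.0 and 115 CPM with vehicle and 82.4, 144 and 188 CPM at 50 mg/kg. The groups overlapped, and the log2 fold change was 0.90 (SE 0.20, edgeR adjusted p = 0.0886). Gp5 of the same receptor complex stood at 0.91 and Itga2b, the integrin αIIb of the fibrinogen receptor, at 0.93 (adjusted p = 0.0978 and 0.105). The share of counts on platelet genes was 0.658% ± 0.19 (SD, n = 6) with vehicle and 0.818% ± 0.15 (SD, n = 6) at 50 mg/kg, which the exact permutation test did not separate (adjusted p = 0.273). Each of the 3 named platelet genes had groups that overlapped.

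Transcription factors of the erythroid and megakaryocytic line showed the same pattern, with 7 of 9 higher at unadjusted p under 0.05, 0 lower and a median of 0.69. Gata1, the master regulator of red cell and platelet precursors, had 22.6, 27.6 and 42.9 CPM against 31.0, 49.3 and 63.0 CPM (log2 fold change 0.70, SE 0.17, edgeR adjusted p = 0.0997). Gfi1b, a repressor required for both lines, had 6.15, 7.83 and 11.0 CPM against 9.86, 13.8 and 18.9 CPM (0.79, SE 0.17, adjusted p = 0.0837). Tal1, a partner of Gata1, stood at 0.69, and Epor, the erythropoietin receptor, at 0.82. The groups overlapped for all of these. DESeq2 called 6 of the 9 at adjusted p under 0.05 with any fold. At unadjusted p under 0.05, 5 of the 9 were higher without TMM (median 0.31). The count was 6 without mouse 32 (median 0.50) and 8 without mouse 36 (median 0.78).

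Among genes of later red cells, 7 of 12 reticulocyte maturation genes were higher at unadjusted p under 0.05, as were 6 of 14 red cell membrane and skeleton genes and 5 of 10 heme synthesis genes, and 0 in the 3 lists were lower. The medians were 0.61, 0.63 and 0.42. These counts changed with single mice and with the scale. Without mouse 32 they were 0 of 12, 3 of 14 and 3 of 10 (medians 0.41, 0.36 and 0.33), and without TMM 0, 1 and 0 (medians 0.23, 0.25 and 0.067). The reticulocyte count was also 3 without mouse 26 or mouse 35 and 4 without mouse 25, the heme count 3 without mouse 35, and leaving out mouse 30 gave 13 membrane and 8 heme genes. DESeq2 called 0, 2 and 2 genes of these lists at adjusted p under 0.05. Slc25a38, the mitochondrial glycine carrier that feeds heme synthesis, had 13.3, 14.0 and 15.9 CPM with vehicle and 16.2, 18.9 and 22.9 CPM at 50 mg/kg, without overlap (0.41, SE 0.095, edgeR adjusted p = 0.0887). Urod, a later heme enzyme, stood at 0.57, Tspo2 of the erythroid membrane at 0.70, Rhd of the Rh complex at 0.68, Gypc, the glycophorin C gene, at 0.47, and Gabarapl2, an autophagy gene, at 0.61. For the globins themselves 0 of 4 passed at unadjusted p under 0.05 in either direction with edgeR, and 2 of 4 were higher with DESeq2. Hbb-bs, adult β-globin, was at 70286 to 186302 CPM at 50 mg/kg and 69921 to 97656 CPM with vehicle, so the groups overlapped. The methods name a library kit that depletes globin RNA, so globin levels are those left after depletion.

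**Figure D2:**
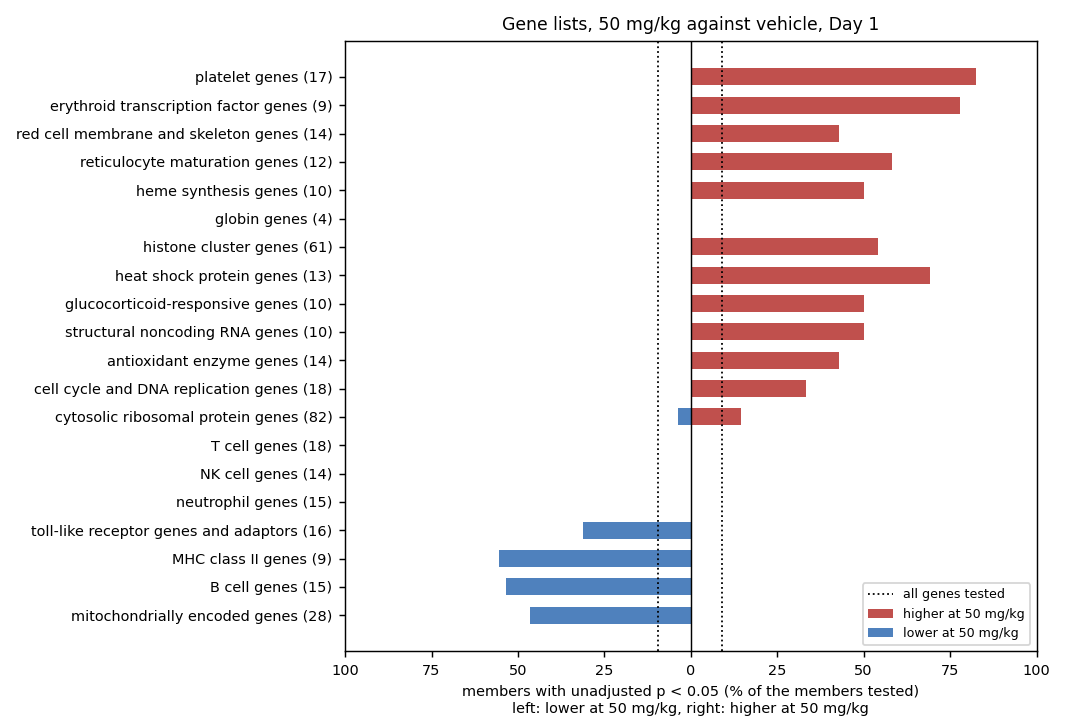
Share of the members of 20 gene lists that had an unadjusted p under 0.05 in edgeR's test (horizontal axis, percent), drawn to the right for members higher at 50 mg/kg and to the left for members lower, with the number of members tested in brackets and dotted lines at the shares over all genes tested, 8.89% higher and 9.6% lower. Of the lists drawn, platelet, erythroid transcription factor and heat shock lists reach furthest to the right, and MHC class II, B cell and mitochondrially encoded lists to the left. The hepatocyte list, whose lower values rest on mouse 29, is not drawn. The dotted lines include genes of very low level, and over genes with at least 1 CPM the shares were 13.6% higher and 12.1% lower.

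Genes encoded by mitochondrial DNA had lower values. Of 28 tested, 13 were lower and 0 higher at unadjusted p under 0.05, with a median log2 fold change of -0.59. Their share of all counts was 0.500% ± 0.12 (SD, n = 6) with vehicle and 0.312% ± 0.065 (SD, n = 6) at 50 mg/kg, a difference that passed the 2-sided exact permutation test over mice (p = 0.00866, adjusted p = 0.039 over 9 shares and totals). This is the share of counts before any scaling between mice. It was 0.667%, 0.573% and 0.552% in vehicle mice 27, 29 and 30 and at most 0.449% in the other vehicle mice. Vehicle mice 27, 29 and 30 also had the highest summed CPM of adipocyte genes, given below. Among treated mice, mouse 36 had both the highest share, 0.413%, and the highest adipocyte sum. The groups overlapped, and the part of such tissue RNA in the difference was not tested. mt-Nd6, a complex I subunit and the single protein gene on the light strand, had 33.2, 47.5 and 68.1 CPM with vehicle and 11.1, 22.4 and 30.8 CPM at 50 mg/kg. The groups did not overlap, and the log2 fold change was -1.17 (SE 0.24, edgeR adjusted p = 0.0837). mt-Nd2, another complex I subunit, had 136, 224 and 330 CPM against 38.4, 106 and 133 CPM, also without overlap (-1.24, adjusted p = 0.0886). Lower values were found on both strands. On the plus strand of the annotation 6 of 10 protein genes and 2 of 10 tRNA genes were lower, and on the minus strand 1 of 1 protein gene and 4 of 7 tRNA genes. Nuclear genes of oxidative phosphorylation did not share the direction, with 23 of 80 higher, 7 lower and a median of 0.0067. DESeq2 called 7 of the 28 mitochondrially encoded genes, all lower.

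Another measure that passed was the number of genes with at least 1 count, 24710 ± 398 (SD, n = 6) with vehicle and 23211 ± 1221 (SD, n = 6) at 50 mg/kg (exact permutation p = 0.00866, adjusted p = 0.039), at totals that did not separate the groups (adjusted p = 0.95). Structural noncoding RNAs lay on the higher side, in a list that also holds Gm26917, Gm42418 and Mir6236 beside small structural RNAs. Of 10 tested, 5 were higher at unadjusted p under 0.05, with a median of 0.92. Rny3, a Y RNA bound by the Ro protein, had 1.31, 2.49 and 5.45 CPM with vehicle and 5.14, 10.1 and 24.2 CPM at 50 mg/kg (log2 fold change 1.88, SE 0.41, edgeR adjusted p = 0.0886). Rn7s2, an RNA of the signal recognition particle, which guides new secretory proteins to the membrane, stood at 1.58, Rn7s1 at 1.54 and Rny1 at 1.56. The groups overlapped for each. Copies of these RNAs lie at many places in the genome, so unique counting leaves their levels uncertain.

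Stress-related genes and cell cycle genes were higher in part. Of 13 heat shock protein genes 9 were higher at unadjusted p under 0.05 and 0 lower (median 0.33), and without TMM 2 were higher and 1 lower (median 0.021). Dnajb1, an HSP40 co-chaperone, had 22.0, 24.6 and 36.2 CPM against 29.7, 41.2 and 52.0 CPM (0.62, SE 0.14, edgeR adjusted p = 0.0886), and Hsph1, an HSP110 chaperone, stood at 0.59. Of 10 glucocorticoid-responsive genes 5 were higher and 0 lower (median 0.29), and without TMM 1 was higher and 1 lower (median 0.00025). Without mouse 32, 8 of the 10 were higher. Ddit4, an inhibitor of mTOR complex 1 signaling, had 10.9, 23.7 and 30.7 CPM against 21.1, 42.8 and 66.1 CPM (0.98, adjusted p = 0.132), and Fkbp5, a co-chaperone of the glucocorticoid receptor, stood at 0.39. Of 14 antioxidant enzyme genes 6 were higher and 0 lower (median 0.25), and of 18 cell cycle and DNA replication genes 6 were higher and 0 lower (median 0.28). Without mouse 32 these counts were 4 of 14 (median 0.17) and 3 of 18 (median 0.22). The antioxidant count was also 4 without mouse 27. The cell cycle count was 4 without mouse 27 or mouse 29 and 10 without mouse 36. Of the cytosolic ribosomal protein genes 12 of 82 were higher and 3 lower, with a median of 0.046. Over genes with at least 1 CPM, 13.6% were higher and 12.1% lower, so the higher count lay close to this background.

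B cell genes had lower values. Of 15 tested, 8 were lower and 0 higher at unadjusted p under 0.05, and all 15 values were negative with a median of -0.31. Fcer2a, the low-affinity IgE receptor CD23, had 111, 127 and 178 CPM with vehicle and 78.6, 98.1 and 127 CPM at 50 mg/kg (-0.46, SE 0.14, edgeR adjusted p = 0.134). Ighd, the constant region of IgD on naive B cells, stood at -0.48 and Ms4a1, which encodes CD20, at -0.38. Of 9 MHC class II genes, which present antigen on B cells, monocytes and dendritic cells, 5 were lower and 0 higher (median -0.28), among them H2-Ob at -0.37 and H2-DMa at -0.30. Of 16 toll-like receptor genes and adaptors 5 were lower and 0 higher (median -0.19). Tlr7, the sensor of single-stranded RNA, had 30.0, 32.2 and 35.2 CPM against 22.1, 27.5 and 29.8 CPM, without overlap (-0.25, adjusted p = 0.128), and Tlr1 stood at -0.30. With edgeR, 0 of these genes passed the adjusted threshold, and DESeq2 called 2 of 15 B cell, 1 of 9 MHC class II and 0 of 16 toll-like receptor genes lower. The counts at unadjusted p under 0.05 varied with the settings. Without TMM they were 14 B cell, 9 MHC class II and 10 toll-like receptor genes lower, and with the spread shared by the 24 unirradiated Day 1 mice 0 in each list. The B cell count was 4 without mouse 26, 28 or 31 and 5 without mouse 35. The toll-like receptor count was 2 without mouse 30 and 3 without mouse 27, 32, 34 or 35. Without mouse 29, the counts became 7 of 15 B cell, 5 of 9 MHC class II and 12 of 28 mitochondrially encoded genes lower, and 13 of 17 platelet, 7 of 9 erythroid transcription factor and 29 of 61 histone genes higher.

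T cell, NK cell and neutrophil genes showed no such shift. Of 18, 14 and 15 genes tested, 0 were higher and 0 lower at unadjusted p under 0.05 in each list, and the medians were 0.038, 0.020 and 0.0034. The T cell median was -0.26 without TMM and -0.05 without mouse 36. Of 8 classical monocyte genes 1 was higher and 3 lower (median -0.25). Of 22 interferon-stimulated genes 1 was higher and 2 lower (median 0.0087).

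**Figure D3:**
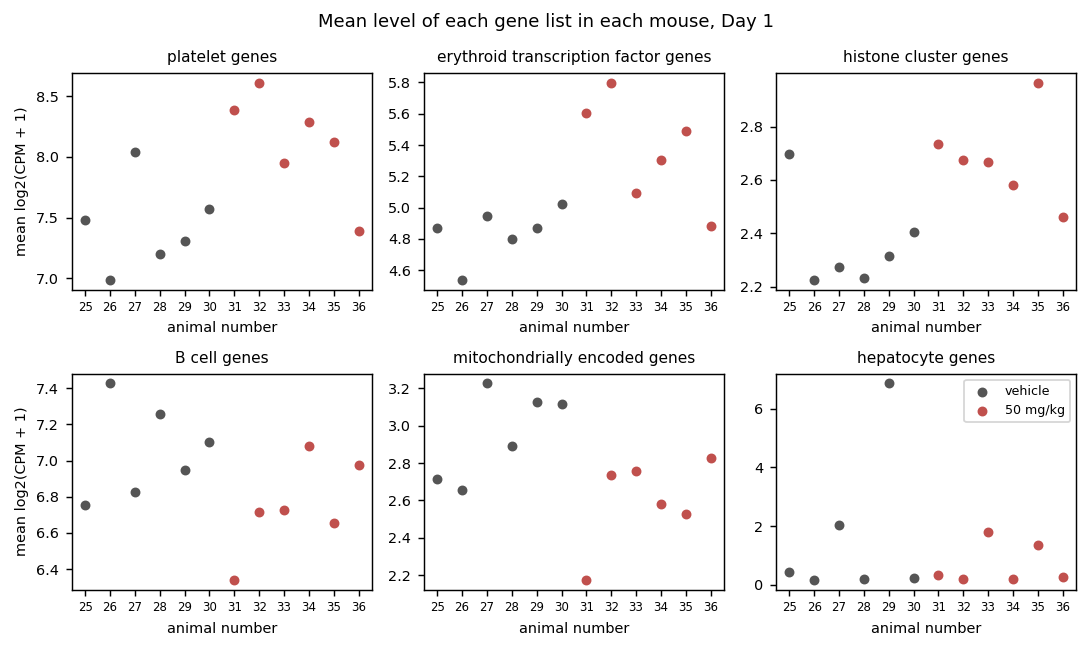
Mean log2(CPM + 1) over the members of each gene list (vertical axes, not starting at 0) by animal number, 1 point per mouse, for the 6 vehicle mice and the 6 mice given 50 mg/kg BIO 300 on Day 1. Platelet genes run from 6.99 to 8.04 with vehicle and 7.39 to 8.61 at 50 mg/kg, and in the hepatocyte panel the vehicle mouse at 6.86 is mouse 29.

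Among genes whose mean reached 10 CPM in either group, 187 of 7487 (2.5%) had groups that did not overlap, 89 higher and 98 lower at 50 mg/kg. Micall2, an actin regulator at cell junctions, had 9.77, 15.5 and 17.6 CPM with vehicle and 22.1, 29.3 and 45.0 CPM at 50 mg/kg (log2 fold change 1.06, SE 0.17, edgeR adjusted p = 0.0586). Pef1, a calcium-binding penta-EF-hand protein, stood at 0.53, Mob3a at 0.47, Rabac1, a Rab-binding membrane protein, at 0.46 and the noncoding RNA gene Gm26825 at 0.57 (adjusted p = 0.0586 to 0.0729). Ftl1-ps1 at 1.11 and Oaz1-ps at 1.00 resemble the ferritin light chain and antizyme genes they were copied from, and their reads may belong to those.

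On the lower side, Zfp971, a zinc finger gene, had 15.7, 18.3 and 22.3 CPM with vehicle and 8.75, 11.5 and 14.5 CPM at 50 mg/kg (-0.71, SE 0.11, edgeR adjusted p = 0.0586). The zinc finger genes Zfp943 (-0.43), Zfp160 (-0.37), Zfp729a (-0.44) and Zfp729b (-0.46) also had no overlap, and the last of these are close copies of each other, so that their reads cannot be assigned with certainty. Ms4a4c, a membrane gene of the CD20 family, had 49.8, 62.2 and 66.1 CPM against 34.5, 39.3 and 45.3 CPM (-0.59, SE 0.098, adjusted p = 0.0586). Lat2, an adaptor in B cell and mast cell signaling, stood at -0.37, Sfr1, a partner in homologous recombination, at -0.34, AW549877 at -0.35 and A530030E21Rik at -0.73 (adjusted p = 0.0766 to 0.0807).

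Base composition moved with the direction. Of the 7480 genes with at least 10 CPM in either group and a transcript in the annotation, the fifth with the least G and C in the longest transcript (30.4% to 43.1%) had 125 genes higher and 369 lower at unadjusted p under 0.05, and the fifth with the most (54.6% to 73.7%) had 438 higher and 37 lower. The median log2 fold change went from -0.066 to 0.087. The lists above differ in the same property, with median GC of 58.3% for histone genes, 57.5% for erythroid transcription factors, 52.1% for both platelet and B cell genes and 35.9% for mitochondrially encoded genes. Median GC was 55.1% for MHC class II genes, which had lower values. It was 47.3% for both heat shock and cell cycle genes, which had higher values. The part of base composition in these results was not tested.

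**Figure D4:**
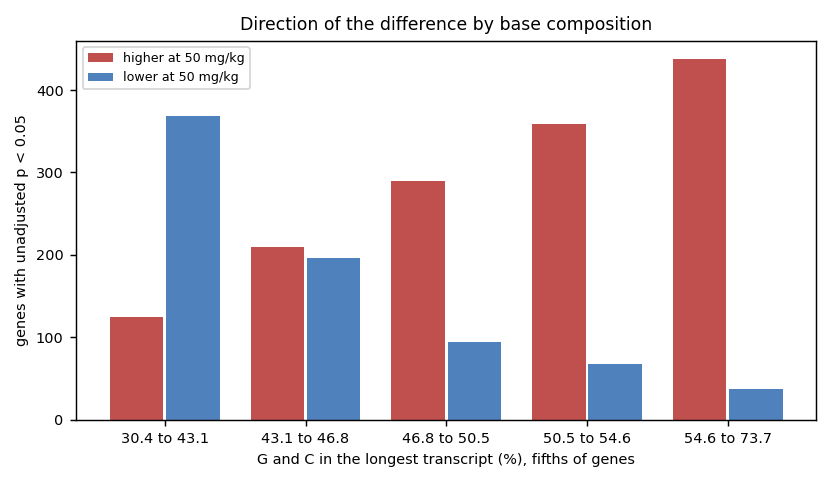
Number of genes with an unadjusted p under 0.05 (vertical axis) that were higher or lower at 50 mg/kg, in 5 equal groups of genes by the percentage of G and C in their longest transcript (horizontal axis). Lower genes outnumber higher genes 369 to 125 in the fifth with the least G and C, and higher genes outnumber lower genes 438 to 37 in the fifth with the most.

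Genes tied to the action of genistein in the study gave few differences. Esr2, which encodes estrogen receptor β, was at 0 to 0.071 CPM with vehicle and 0 to 0.11 CPM at 50 mg/kg, so a difference was not detectable at this depth. Esr1, which encodes estrogen receptor α, had 2.35, 3.60 and 4.12 CPM against 2.59, 2.73 and 3.29 CPM (-0.24, edgeR adjusted p = 0.437). Of 12 estrogen receptor and coregulator genes 1 was higher and 0 lower at unadjusted p under 0.05 (median 0.026). S100b had 0.031 to 0.40 CPM with vehicle and 0 to 0.072 CPM at 50 mg/kg (adjusted p = 0.119), few counts in every library. The 8 adipocyte genes tested summed to 68.2, 185 and 138 CPM in vehicle mice 27, 29 and 30, 3.52 to 5.15 CPM in the other vehicle mice and 3.33 to 40.7 CPM at 50 mg/kg, with 7 of 8 log2 fold changes negative (median -1.78). Their part in the S100b values was not tested. Egfr, the epidermal growth factor receptor, gave -2.60 with all 12 mice and 0.81 without mouse 29, where it was at 27.4 CPM. The hepatocyte list likewise had 15 of 16 genes lower and a median of -5.02 with all mice, and 0 lower, 1 higher and a median of -0.031 without mouse 29.

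At 24 h after dosing (Day 0), the same dose had been compared with its own vehicle mice in another 12 animals. Whether the effect differed by day was tested in a fit of the 24 mice, where 2754 of 26323 genes (10.5%) had a higher effect on Day 1 and 1854 (7.04%) a lower one at adjusted p under 0.05. Without TMM the balance turned to 795 higher and 12868 lower. Platelet genes stood at a median log2 fold change of -1.02 on Day 0 and 0.75 on Day 1, and the difference was called for 16 of 17. Reticulocyte maturation genes went from -1.61 to 0.61 (12 of 12 called), red cell membrane genes from -1.73 to 0.63 (14 of 14), erythroid transcription factors from -1.10 to 0.69 (8 of 9) and heme synthesis genes from -1.13 to 0.42 (9 of 10). B cell genes went from 0.36 to -0.31, with 10 of 15 called lower on Day 1, and MHC class II genes from 0.45 to -0.28, with 7 of 9. Gata1 shows the turn in a single gene, at -1.10 on Day 0 and 0.70 on Day 1 (difference 1.81, edgeR adjusted p = 0.000263). Hist1h4n stood at -0.23 on Day 0 and differed by 1.00 between days (adjusted p = 0.000507), and Hist1h4h at -0.23 and 0.96 (adjusted p = 0.000277). Mitochondrially encoded genes were at -0.74 on Day 0 and -0.59 on Day 1, with the difference called for 0 of 28. Day 0 and Day 1 mice are different animals, and nothing in the labels says how they were divided over bleeding or sequencing days.

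**Figure D5:**
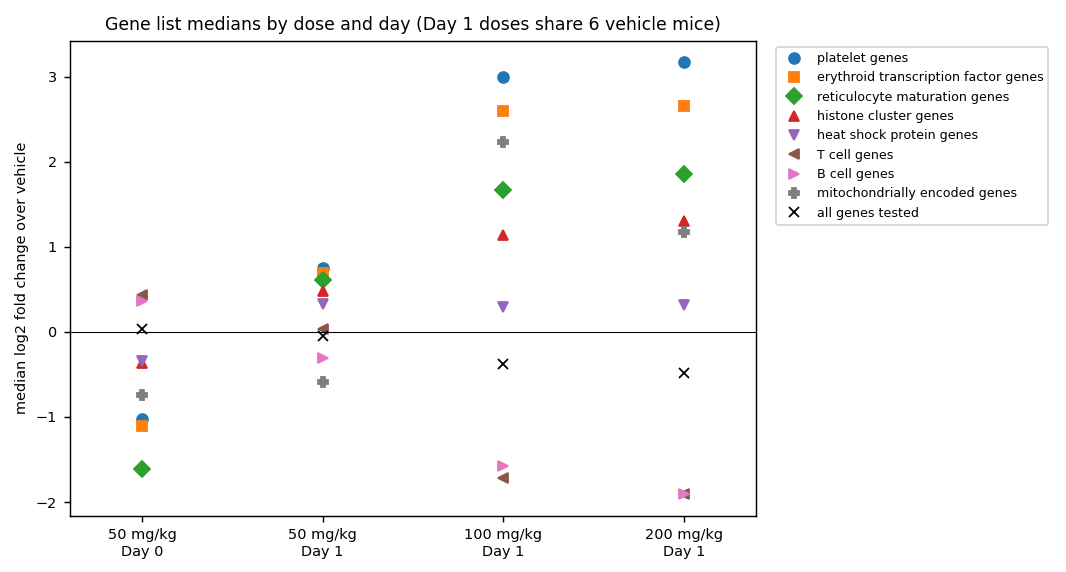
Median log2 fold change over vehicle (vertical axis) of gene lists at 50 mg/kg on Day 0 and at 50, 100 and 200 mg/kg on Day 1, with the median of all genes tested as a cross. Platelet genes lie at -1.02, 0.75, 2.99 and 3.17, and mitochondrially encoded genes at -0.74, -0.59, 2.23 and 1.17, and the Day 1 doses share the same 6 vehicle mice.

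The higher doses on Day 1 were compared with the same 6 vehicle mice, so their fold changes are not independent of those at 50 mg/kg, and the difference between 200 and 50 mg/kg was tested directly between the treated groups. The medians of all genes tested were -0.045, -0.38 and -0.48 at 50, 100 and 200 mg/kg. At 200 mg/kg 5749 of 25267 genes (22.8%) were higher than at 50 mg/kg and 8950 (35.4%) lower at adjusted p under 0.05, and without TMM 1624 were higher and 15710 lower. Platelet genes had medians of 0.75, 2.99 and 3.17 at 50, 100 and 200 mg/kg, with 17 of 17 higher at 200 than at 50 mg/kg. B cell genes had medians of -0.31, -1.57 and -1.90, with 14 of 15 lower, and T cell genes, at 0.038 with 50 mg/kg, were lower at 200 mg/kg in 17 of 18. For mitochondrially encoded genes the sign differed, with medians of -0.59, 2.23 and 1.17 and 24 of 28 genes higher at 200 than at 50 mg/kg, among them mt-Nd6 at -1.17, 1.76 and 1.14 (difference 2.29, edgeR adjusted p = 3.65e-07).

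Some genes stood higher at 50 mg/kg than at 200 mg/kg. Single genes compared between these doses, here and above, were mostly named for a low p at 50 mg/kg against vehicle. The contrast of 200 with 50 mg/kg uses the same treated mice, which favours a difference of the opposite sign. Their adjusted p-values are therefore descriptions. Over all genes tested, 35.4% were called lower at 200 mg/kg, and the median 200 minus 50 mg/kg difference was -0.39. Hist4h4 had log2 fold changes of 0.80, -0.16 and -0.52 at 50, 100 and 200 mg/kg (200 minus 50 mg/kg -1.33, edgeR adjusted p = 3.88e-06), and Hist2h4 of 0.58, -0.20 and -0.11 (-0.70, adjusted p = 0.00541). Dnajb1 had 0.62, -0.07 and -0.15 (-0.78, adjusted p = 0.000411), Ddit4 0.98, 0.14 and 0.00 (-0.98, adjusted p = 0.00968) and Fkbp5 0.39, -0.21 and -0.01 (-0.42, adjusted p = 0.0135). Hist1h4n, in contrast, stood at 0.76, 1.61 and 1.52, higher at 200 than at 50 mg/kg (0.74, edgeR adjusted p = 0.000317). Hist1h4h stood at 0.74, 0.77 and 0.60, where the difference was not called (-0.15, adjusted p = 0.283). The histone list as a whole had medians of 0.49, 1.14 and 1.30 at 50, 100 and 200 mg/kg. Of its 61 genes 31 were higher and 4 lower at 200 than at 50 mg/kg, with a median difference of 0.73. Of the 10 glucocorticoid-responsive genes 6 were lower at 200 than at 50 mg/kg and 1 was higher, with a median difference of -0.48. The difference for Fkbp5 and the median of this list lay near the median of all genes. Of the 13 heat shock protein genes 2 were higher and 4 lower at 200 than at 50 mg/kg, with a median difference of -0.12.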

How the data were processed

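Whole blood RNA of 12 mice was analysed, and their groups come from the labels. The authors used Trimmomatic 0.36 for trimming, STAR 2.5.2b for alignment to GRCm38 and Subread 1.5.2 to count unique hits per gene. The deposited counts are whole numbers without normalization, with 21247249 to 32949547 per mouse. The annotation release and the counting strand are not given in the sources used here, and overlapping or antisense genes may share reads. The labels name poly(A) selection, whereas the methods name a stranded total RNA kit that depletes ribosomal and globin RNA. The deposited tables of the authors' DESeq2 fold changes and p-values were not used. Doses in mg/kg come from the methods.

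Genes with at least 10 counts over the 12 mice were tested with edgeR 4.0.16 (TMM, glmQLFit, glmQLFTest) with Benjamini-Hochberg adjustment over every gene tested. R 4.3.3, limma 3.58.1 and the package data.table (version 1.17.8) were also used. An unadjusted p under 0.05 is used only to describe lists. The SE was the absolute log2 fold change over the square root of F. Differences between days or doses were contrasts in one fit of the groups concerned. DESeq2 1.42.0 was the second tool, and other alternatives are given in the closing section. Shares and totals were compared with a 2-sided exact permutation test over mice. The smallest chi-square statistic per gene between mice of 1 group was 15.1, and the libraries are therefore distinct. The tests recovered known changes of at least 2-fold in simulated counts. The simulation held no smaller changes, such as those of the called genes. Coordinates come from GENCODE M21 on GRCm38.

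Genes were named by rule. They are the called genes, the 10 genes per direction with the lowest p among those without overlap and with a mean of at least 10 CPM, the 3 DESeq2 DEGs per direction with the largest change, up to 4 members per list by lowest p, and genes named in earlier work on the series. Some genes the rule names are not reported here. Members and lists were chosen with earlier results of these data known. No paired analysis was possible because animal numbers are not shared between groups.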

Additional observations from a re-analysis of the deposited data

Results flagged for a closer look

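Of 144 groups of 6 mice looked at, 14 had a highest or lowest mouse far from the others by Dixon's criterion (gap over range above 0.625), and chance alone gives about 1 in 20. Mouse 29, a vehicle mouse, had Alb at 1051 CPM against 0 to 18.3 CPM in the other vehicle mice, and Egfr at 27.4 CPM against 0.094 to 0.64 CPM. At 50 mg/kg mouse 33 had Alb at 23.0 CPM against 0 to 8.18 CPM. Mouse 31 was the lowest treated mouse for Hist1h4n, at 22.1 CPM against 26.9 to 27.8 CPM, and the highest for Gm24245, annotated as a microRNA, at 17.9 CPM against 2.34 to 7.91 CPM. Mouse 32 was the highest treated mouse for Hbb-bs, at 186302 CPM against 70286 to 113296 CPM, and the lowest for Lat2, at 13.0 CPM against 15.2 to 16.2 CPM. The same mouse had 0.0704% of its counts on histone genes against 0.0940% to 0.105%. Among the vehicle mice, mouse 26 was the lowest for Micall2 at 9.77 CPM and the highest for Ms4a1 at 347 CPM and Tlr1 at 48.0 CPM. Mouse 25 was the highest for Hist2h4 at 17.4 CPM and for Hba-a1 at 2052 CPM. Mouse 30 had 32949547 counts in total against 22605827 to 25294000 in the other vehicle mice.

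The effect of 50 mg/kg differed between Day 1 and Day 0 for 50 of 63 genes looked at, 31 higher and 19 lower on Day 1, in edgeR's test of the difference with adjusted p-values of 0.000102 to 0.025. Most of these genes were named for a low p on Day 1, which favours such a difference, so the count is a description. Over all genes tested, 10.5% were higher and 7.04% lower. Each value here is the Day 1 minus the Day 0 log2 fold change. For the histone H4 genes the differences were 1.00 (Hist1h4n), 0.96 (Hist1h4h), 0.95 (Hist4h4) and 0.64 (Hist2h4). Platelet genes differed by 1.93 (Gp1bb), 2.04 (Gp5) and 1.97 (Itga2b). Transcription factors and receptors of red cell precursors differed by 1.67 (Gfi1b), 2.06 (Epor), 1.81 (Gata1) and 1.75 (Tal1). Genes of later red cells differed by 1.26 (Gypc), 2.22 (Rhd), 2.49 (Tspo2), 2.08 (Gabarapl2), 0.99 (Slc25a38) and 2.04 (Urod). The small structural RNAs had differences of 3.08 (Rn7s2), 3.37 (Rny3), 3.49 (Gm26461), 3.27 (Rny1) and 2.77 (Rn7s1), and Gm24245 one of 3.69. The chaperone gene Hsph1 differed by 1.01. Further genes with a higher effect on Day 1 were Pef1 (0.84), Micall2 (2.49), Mob3a (0.78), Rabac1 (0.55), Gm26825 (0.74), Ftl1-ps1 (2.59) and Oaz1-ps (2.55). A lower effect on Day 1 was found for the B cell genes Fcer2a (-0.90), Ighd (-1.04) and Ms4a1 (-0.66), for the MHC class II genes H2-DMa (-0.76) and H2-Ob (-0.86), and for the receptors Tlr7 (-0.67) and Tlr1 (-0.70). The zinc finger genes had -0.91 (Zfp971), -0.71 (Zfp943), -0.68 (Zfp160), -0.78 (Zfp729a) and -0.78 (Zfp729b). The others were Ms4a4c (-1.13), A530030E21Rik (-1.11), AW549877 (-0.73), Lat2 (-0.71), Sfr1 (-0.54), Gm10800 (-1.79) and A130071D04Rik (-0.50).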

How the results depend on the processing

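The number of genes called depended on the settings. edgeR's 0 DEGs became 11 with the filterByExpr filter, 3 with every gene of at least 1 count and 1 with the spread shared by the 24 unirradiated Day 1 mice. DESeq2 called 39, or 68 with its default filter level, a setting chosen after seeing the data. Leaving out single mice gave 0 to 59 DEGs, with 29 without mouse 27 and 59 without mouse 36. The 2 genes at adjusted p under 0.05 became 1246 with DESeq2 (1205 with its default filter level), 5 with limma voom and quality weights, 9 with RLE size factors, 0 with library totals without TMM, 91 with filterByExpr, 12 with every gene of at least 1 count, 4 with odd or even animal numbers as covariate and 1 with the lower or upper numbers of each group as covariate. Leaving out single mice gave 0 to 527 genes, with 118 without mouse 27, 8 without mouse 30 and 527 without mouse 36. Of the 118 genes called without mouse 27, 107 were among the 527 called without mouse 36. Hist1h4n and Hist1h4h each passed in 14 of 23 alternatives, with log2 fold changes of 0.43 to 0.84 and 0.42 to 0.81. The causes were not tested.

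The genes whose 50 mg/kg effect differed between days numbered 4608, 13663 with library totals without TMM (795 higher, 12868 lower), and 3881 to 5010 when single mice were left out, a choice made after seeing the data. The median log2 fold change of platelet genes was 0.39 to 0.91 over the 23 alternatives and that of histone genes 0.15 to 0.62. Egfr and Alb turned positive with voom and without mouse 29, and Hba-a1 turned negative without TMM, all uncalled. At 21247249 to 32949547 counts, genes near 0 CPM such as Esr2 and S100b rest on few reads.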

Other observations

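Some families were looked at after the values had been seen, so their counts are descriptions of a choice. Of 311 Zfp zinc finger genes with at least 1 CPM, 98 (31.5%) were lower and 9 (2.89%) higher at unadjusted p under 0.05, against 12.1% lower and 13.6% higher of the 14008 genes at that level, and their median log2 fold change was -0.15. The same family had medians of 0.25 on Day 0 at 50 mg/kg and of -1.11 and -1.13 on Day 1 at 100 and 200 mg/kg. Of 13 Tuba and Tubb genes, which encode the subunits of microtubules, 9 were higher and 0 lower, with a median of 0.40 at 50 mg/kg on Day 1, -0.34 on Day 0, and 1.73 and 1.74 at 100 and 200 mg/kg.

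Among lists not described above, 4 of 12 BCL2 family genes were higher and 0 lower, 3 of 8 dendritic cell genes higher and 0 lower, 2 of 7 endothelial genes higher and 0 lower, 5 of 14 NRF2 target genes higher and 1 lower, and 2 of 12 p53 target genes higher and 0 lower at unadjusted p under 0.05. Other lists leaned lower. Of 12 interleukin 1 and inflammasome genes 0 were higher and 3 lower. Of 13 long noncoding RNA genes that are nuclear or host small nucleolar RNAs, 0 were higher and 3 lower (median -0.19). Over all genes tested 8.89% were higher and 9.6% lower, and over those with at least 1 CPM 13.6% and 12.1%. The count for p53 target genes lies close to the latter share. Bbc3, which encodes the BCL2 family protein PUMA, stood at 0.60 and was 1 of 38 genes called by DESeq2, by edgeR with filterByExpr, and by edgeR without mouse 27 and without mouse 36. Small nucleolar RNA genes gave 4 of 66 higher and 2 lower. At 200 mg/kg 32 of these 66 were lower than at 50 mg/kg at adjusted p under 0.05, against 35.4% of all genes tested.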
